A study of Mus musculus with 7 samples.

Results

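The genes described here were Dnmt1, Dnmt3a, Dnmt3b, Dnmt3l, Uhrf1, Tet1, Tet2, Trim28 and Setdb1, which write, keep or remove DNA methylation or silence retroelements in mouse embryonic stem cells (mES cells). They were taken by their symbols from the expression table, which held 9 of them among 22556 genes, and all 9 were among the 13599 genes whose mean over the libraries was 1 RPM or more (RPM scales the read pairs of a gene to the total of its library). The values came from chromatin-associated RNA sequencing (ChrRNA-seq), which enriches for transcripts still being made by isolating the RNA bound to chromatin, and each value counted read pairs over exons and introns of a gene on its own strand. A level in this assay is therefore closer to transcription than to the amount of mature mRNA, and these libraries do not measure protein.

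The libraries came from C7H8 cells, a single clone of iXist-ChrX Cast mES cells with a Mus castaneus by 129 background and a pair of X chromosomes, in which a TetOn promoter drives Xist from the castaneus chromosome. In DMSO, 3 libraries were made (replicates 1 to 3), and STM2457, an inhibitor of METTL3, the enzyme that writes N6-methyladenosine on RNA, was given at 10 µM (2 libraries, replicates 1 and 2), 20 µM (1 library) and 30 µM (1 library). All cells, controls included, were held in DMSO or inhibitor for 6 h and then for a further 24 h with doxycycline, so every library had Xist induced and none was uninduced. The study made these libraries to follow the silencing of X-linked genes by Xist under METTL3 inhibition, and the 9 genes described here are autosomal.

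DNMT1 copies methylation onto the new strand after replication, and UHRF1 brings it to hemimethylated CpG sites. DNMT3A and DNMT3B methylate unmethylated CpG sites, and DNMT3L has no catalytic activity of its own but stimulates both. TET1 and TET2 oxidise 5-methylcytosine, which opens the way to its removal. TRIM28 (KAP1) is brought to retroelements by KRAB zinc finger proteins and recruits SETDB1, which methylates lysine 9 of histone H3. In mES cells this pathway holds endogenous retroviruses silent, and mES cells tolerate the loss of DNA methylation better than differentiated cells do.

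The libraries held 9300549 to 28030180 read pairs on genes, with the 20 µM library the shallowest, and the 9 genes held 470 to 28937 read pairs in any library. Wilson intervals (95%) on single values cover counting error only, as the read pairs carried no molecular identifiers. Principal component 1 of 13094 autosomal genes, from which the 9 genes were left out, took 78.8% of the variance and split the libraries in a way that did not follow the treatment. One side (library set 1) held DMSO replicates 1 and 2 and both 10 µM libraries, and the other (library set 2) held the libraries of both higher doses together with DMSO replicate 3. What the sets stand for was not given in the labels. Dose was compared within a set in pairs of 10 µM and DMSO libraries with the same replicate number and against DMSO replicate 3. Slopes were also fitted with the set as a covariate. The 10 µM comparison with all 3 DMSO libraries and the unadjusted slope over all 7 libraries spanned both sets. Of the mES cell markers, Pou5f1 ran from 33.6 to 47.9 RPM, Nanog from 71.4 to 95.7 and Esrrb from 544.6 to 793.6, while Sox2 was listed at 0 in all libraries. Markers of the same list were lower by 0.5 or more in log2 units in DMSO replicate 3 than in replicates 1 and 2 for 4 of the 9 tested, namely Dppa5a (-2.32), Fgf4 (-1.40), Klf4 (-1.26) and Tdgf1 (-0.68), beside 29.9% of all genes tested. The mES cells were grown with mouse fibroblast feeders, and of 14 fibroblast markers the 7 at or under 0.941 RPM in every library were Col1a1, Col1a2, Col3a1, Lum, Dcn, Postn and Acta2. The others reached higher levels, among them Fn1 at 423 to 1148 RPM, Col5a1 at 15.3 to 42.0, Fbn1 at 14.7 to 22.5 and Col6a1 at 0.186 to 10.7. Fewer cells of a type and less RNA per cell cannot be told apart in such bulk libraries.

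The sequences below show the promoters of the members lower by 0.5 or more in log2 units in DMSO replicate 3 than in the other DMSO libraries (Uhrf1, and Dnmt1, which was lower by that much on the deposited scale but not with TMM factors) and of the pair that was below all DMSO libraries at 10 µM (Tet1 and Tet2). They are RefSeq windows of 300 bases (GRCm38.p6) that run from 250 bases before an annotated start to 50 after it, printed 5′ to 3′ on the gene's strand, with CpG dinucleotides, the substrate of these enzymes, in capitals. Symbols of 9 of the 9 genes matched the promoter table. For 8 of them the annotated start of a window was that of the listed span. The annotated start of the Tet1 window lay 7310 bases upstream of its listed start. That of the printed Dnmt1 window lay 356 bases inside the listed span and that of the Uhrf1 window 976 bases inside. The start of a further Dnmt1 window lay 6909 bases upstream of the listed start. The counted length of Dnmt1 was longer than its listed span, so its counting may have begun upstream of the listed start. Of the 3 Dnmt1 and 2 Uhrf1 windows, those printed were chosen since they held the E2F-type words described next.
Dnmt1, chr9:20952574-20952873, minus strand: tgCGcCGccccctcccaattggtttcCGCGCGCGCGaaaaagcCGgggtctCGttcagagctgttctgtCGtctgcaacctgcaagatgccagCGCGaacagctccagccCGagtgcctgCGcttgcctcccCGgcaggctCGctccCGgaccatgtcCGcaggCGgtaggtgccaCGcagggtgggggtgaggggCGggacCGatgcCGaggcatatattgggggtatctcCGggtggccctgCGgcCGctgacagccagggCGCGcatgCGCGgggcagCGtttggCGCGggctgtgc
Uhrf1, chr17:56304063-56304362, plus strand: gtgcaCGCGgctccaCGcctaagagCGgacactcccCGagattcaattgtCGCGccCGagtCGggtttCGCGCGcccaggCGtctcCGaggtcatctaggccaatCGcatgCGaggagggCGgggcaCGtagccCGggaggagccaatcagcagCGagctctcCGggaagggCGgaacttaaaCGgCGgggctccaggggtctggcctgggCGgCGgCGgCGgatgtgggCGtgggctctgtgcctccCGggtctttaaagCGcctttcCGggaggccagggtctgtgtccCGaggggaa
Tet1, chr10:62887275-62887574, minus strand: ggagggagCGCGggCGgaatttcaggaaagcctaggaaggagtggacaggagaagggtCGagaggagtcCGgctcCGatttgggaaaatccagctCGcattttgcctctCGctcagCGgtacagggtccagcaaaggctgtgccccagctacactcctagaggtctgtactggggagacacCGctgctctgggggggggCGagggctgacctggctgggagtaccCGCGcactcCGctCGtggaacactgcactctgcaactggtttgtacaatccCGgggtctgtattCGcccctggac
Tet2, chr3:133544341-133544640, minus strand: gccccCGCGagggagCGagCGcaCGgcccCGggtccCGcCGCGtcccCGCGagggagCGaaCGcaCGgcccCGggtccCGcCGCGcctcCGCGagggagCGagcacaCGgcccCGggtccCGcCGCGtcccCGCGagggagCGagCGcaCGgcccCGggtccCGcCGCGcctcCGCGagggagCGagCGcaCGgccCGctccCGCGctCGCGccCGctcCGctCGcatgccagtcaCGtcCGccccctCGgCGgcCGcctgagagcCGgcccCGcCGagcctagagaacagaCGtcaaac
The Tet2 window held 57 CpG dinucleotides, a number reached by 0.152% of 32851 windows of this length, whose median was 7. The printed Dnmt1 and Uhrf1 windows held 33 each, and the Tet1 window held 17. At the listed start, Dnmt1 and Uhrf1 had 12 each, Dnmt3a had 46, Dnmt3b 30, Trim28 23, Setdb1 15 and Dnmt3l 6. The Dnmt1 window 6909 bases upstream of its listed start had 2. The E2F-type words TTTCCCGC, TTTCGCGC, TTTGCCGC and TTTGGCGC were searched on both strands, and 2.26% of all windows, and 4.27% of the 2812 windows with 33 or more CpG, held one. Matches are a description of letters, not of binding. The Dnmt1 window held 2 matches, TTTGGCGC at base 33 and GCGCGAAA, which is TTTCGCGC on the other strand, at base -219, counted from the annotated start as base 0. The Uhrf1 window held 1, TTTCGCGC at base -185. The other windows of the 9 genes, those of Dnmt1 and Uhrf1 at the listed start included, held none of these words.

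Per kilobase of counted length, the levels of Trim28 and Tet1 were highest and that of Dnmt3a lowest of the 9 genes. In DMSO, Trim28 (chr7:13024152-13031032, plus strand, mm10) gave 25.8 ± 4.70 RPM per kb (SD, n = 3) and Tet1 (chr10:62804570-62880014, minus strand) gave 13.3 ± 3.99. Uhrf1 (chr17:56303337-56323486, plus strand) followed at 5.31 ± 1.96, Tet2 (chr3:133463677-133544390, minus strand) at 4.81 ± 1.37, Setdb1 (chr3:95323525-95357202, minus strand) at 4.51 ± 0.700, Dnmt3b (chr2:153649449-153687730, plus strand) at 3.85 ± 1.22 and Dnmt1 (chr9:20907206-20952979, minus strand) at 3.79 ± 0.937. These 5 overlapped with their neighbours in the DMSO libraries, so their order was not resolved. Dnmt3l (chr10:78042287-78063622, plus strand) stood lower at 1.89 ± 0.656, and Dnmt3a (chr12:3806980-3914443, plus strand) lowest at 0.443 ± 0.125. Trim28 did not overlap with Tet1, nor Tet1 with Uhrf1, Dnmt1 with Dnmt3l or Dnmt3l with Dnmt3a, over the DMSO libraries. The counted length of Dnmt1, 52684 bases, was longer than its listed span, which lowers its value per kb. Only genes on the opposite strand overlapped with the 9: Dnmt3aos with Dnmt3a, Aire with Dnmt3l and Cers2 with Setdb1, with means of 0.0112, 29.7 and 10.5 RPM, and the counting used strand.

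**Figure D1:**
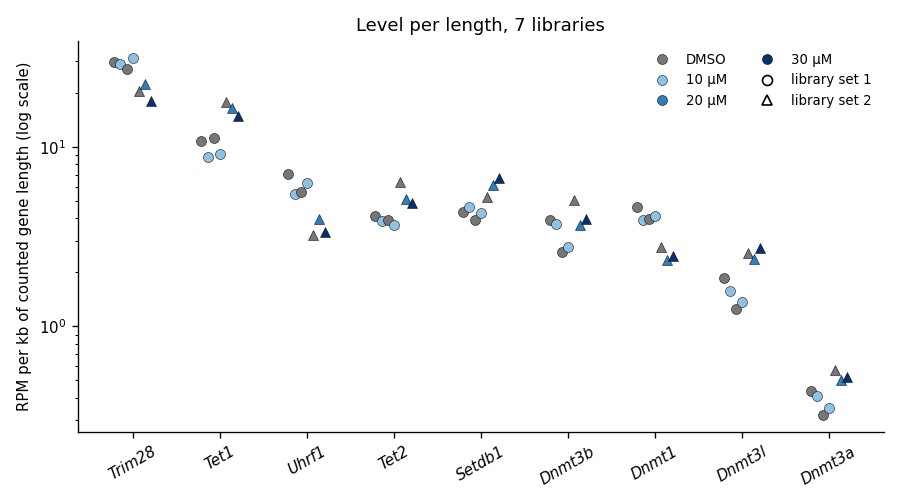
Level of the 9 genes per kilobase of counted gene length (RPM per kb, log scale), with 1 point per library, coloured by treatment; circles are library set 1 and triangles library set 2. Trim28 and Tet1 lie above the rest and Dnmt3a below, and the circles and triangles of most genes fall apart.

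The maintenance genes had no common direction under the inhibitor, and both were lower in library set 2. Dnmt1 was at 244, 209 and 146 RPM in DMSO replicates 1, 2 and 3, 207 and 217 with 10 µM, 123 with 20 µM, and 130.0 with 30 µM. Uhrf1 was at 143, 113 and 65.0 RPM in DMSO, 110.3 and 126 with 10 µM, 79.9 with 20 µM, and 68.0 with 30 µM. For both genes DMSO replicate 3 was below the other DMSO libraries, and it lay nearest to both higher doses. Within pairs, Dnmt1 differed by -0.23 and 0.06 on the log2(RPM + 1) scale (10 µM minus DMSO of the same number), the second of which became -0.0046 with TMM factors, and Uhrf1 by -0.37 and 0.16 (0.10 with TMM factors). Against DMSO replicate 3, Dnmt1 was lower by 0.25 at 20 µM and 0.17 at 30 µM in log2 units (-0.25 and -0.17), and Uhrf1 was higher by 0.29 and 0.06. With TMM factors these were -0.12 and -0.21 for Dnmt1 and 0.42 and 0.02 for Uhrf1, so the order of the doses turned for Dnmt1. The 20 µM and 30 µM values share that control library and have no replicates.

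The de novo genes were higher on average in library set 2, and their 10 µM libraries lay within the range of DMSO. Dnmt3a was at 46.7, 34.6 and 61.5 RPM in DMSO, 43.9 and 37.8 with 10 µM, 54.1 with 20 µM, and 56.0 with 30 µM. Dnmt3b was at 149, 99.9 and 193 RPM in DMSO, 143 and 106 with 10 µM, 141 with 20 µM, and 152 with 30 µM. Dnmt3l was at 39.9, 26.5 and 54.5 RPM in DMSO, 33.6 and 29.1 with 10 µM, 50.5 with 20 µM, and 58.5 with 30 µM. In each of these genes the order of the pairs was kept, with replicate 1 above replicate 2 both in DMSO and at 10 µM, and DMSO replicate 3 above both. All 3 had a lower value at 10 µM than in DMSO in pair 1, with differences of -0.09, -0.06 and -0.24 in log2 units, and a higher one in pair 2, with differences of 0.13, 0.09 and 0.13. The pair 2 differences were 0.07, 0.02 and 0.07 with TMM factors, and the median of all genes in pair 2 was 0.06 on the deposited scale. In set 2, Dnmt3b differed from DMSO replicate 3 by -0.45 at 20 µM (-0.32 with TMM factors), a fold of 0.731 with a counting interval of 0.687 to 0.778, and by -0.34 at 30 µM. Dnmt3a differed by -0.18 (-0.06 with TMM factors) and -0.13. Dnmt3l differed by -0.11, which became 0.02 with TMM factors, and by 0.10.

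The demethylation genes Tet1 and Tet2 were the members whose 10 µM libraries both lay below all DMSO libraries. Tet1 was at 812, 841 and 1348 RPM in DMSO, 659.9 and 690.4 with 10 µM, 1244 with 20 µM, and 1122 with 30 µM. Tet2 was at 331, 317 and 516 RPM in DMSO, 311 and 297 with 10 µM, 413 with 20 µM, and 394 with 30 µM. At 10 µM both genes were below their lowest DMSO value, and at 20 µM and 30 µM both were below DMSO replicate 3 and above replicates 1 and 2. Tet1 was 0.812 of DMSO in pair 1 (counting interval 0.795 to 0.830) and 0.821 in pair 2 (0.804 to 0.837), with log2 differences of -0.30 and -0.28. Tet2 was 0.938 and 0.936 of DMSO in the pairs (-0.09 and -0.09, the second -0.16 with TMM factors). Against DMSO replicate 3, Tet1 differed by -0.12 at 20 µM, which became 0.01 with TMM factors, and by -0.26 at 30 µM, and Tet2 by -0.32 (-0.19 with TMM factors) and -0.39. Of all genes tested, 8.74% had both 10 µM libraries below all 3 DMSO libraries, against 2 of the 9, and 16.6% had both above, against 0 of the 9.

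Trim28 and Setdb1, which act on the same retroelements, lay on opposite sides of DMSO replicate 3 at 30 µM. Trim28 was at 205, 186 and 142 RPM in DMSO, 199 and 214 with 10 µM, 155 with 20 µM, and 124 with 30 µM. Setdb1 was at 146, 132 and 178 RPM in DMSO, 157 and 145 with 10 µM, 205 with 20 µM, and 227 with 30 µM. Trim28 had its lowest value at 30 µM and its highest at 10 µM, while Setdb1 had its highest values at 30 µM and 20 µM. In the pairs Trim28 differed by -0.04 and 0.20 and Setdb1 by 0.10 and 0.13 (0.07 with TMM factors). Against DMSO replicate 3, Trim28 differed by 0.13 at 20 µM and -0.20 at 30 µM, and Setdb1 by 0.21 and 0.35, the latter a fold of 1.28 with a counting interval of 1.23 to 1.33. With TMM factors Trim28 was at 0.25 and -0.24 and Setdb1 at 0.34 and 0.31, so that Setdb1 was no longer higher at 30 µM than at 20 µM.

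**Figure D2:**
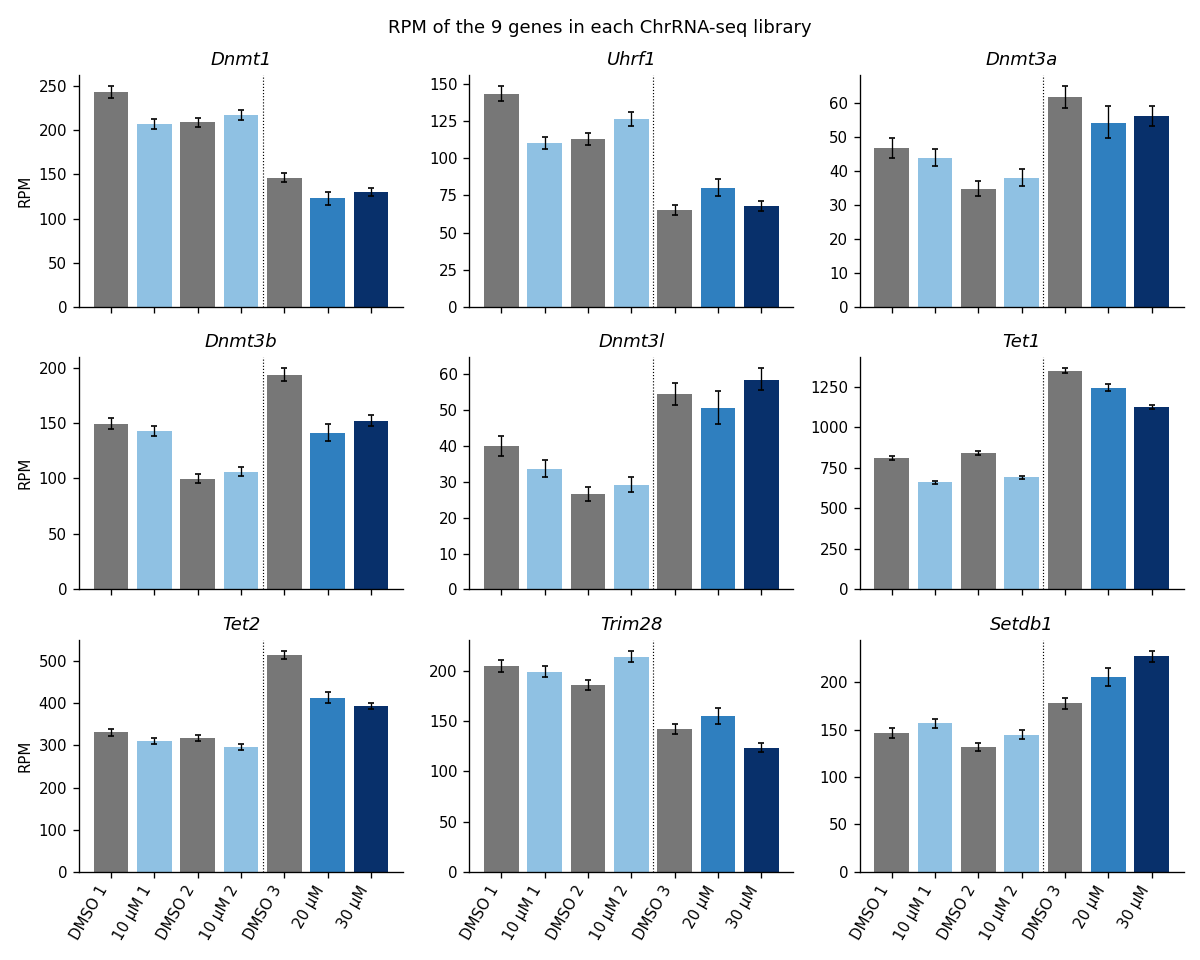
RPM of each of the 9 genes in each of the 7 libraries, with Wilson 95% counting intervals as bars; grey is DMSO, blues are 10, 20 and 30 µM STM2457, pairs of the same number stand side by side, and the dotted line divides library set 1 (left) from set 2 (right). Dnmt1, Uhrf1 and Trim28 are lower to the right of the line, and the other 6 genes are higher there on average, with overlap between the sides for Dnmt3b.

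No member passed the threshold when the 10 µM libraries were compared with all 3 DMSO libraries. With limma on log2(RPM + 1), called at a Benjamini-Hochberg adjusted p under 0.05 over 13599 genes, 0 genes were called (0.0%), 212 had an unadjusted p under 0.05, and edgeR called 0 and DESeq2 called 1. The largest estimate in size among the 9 was that of Tet1, with a log2 difference of -0.53 ± 0.24 (SE) and an adjusted p of 0.811. Tet1 averaged 675 ± 21.6 RPM at 10 µM (SD, n = 2) and 1000.5 ± 301 in DMSO (n = 3). The wide SD of DMSO came from replicate 3. Tet2 followed at -0.32, Dnmt3l at -0.30, Dnmt3b at -0.21 and Dnmt3a at -0.18, and Trim28 was at 0.23, Uhrf1 at 0.21, Dnmt1 at 0.12 and Setdb1 at -0.0011, all with adjusted p between 0.811 and 0.998 (limma). With TMM factors, Trim28 was at 0.15, Uhrf1 at 0.12, Dnmt1 at 0.03, Setdb1 at -0.09 and Tet1 at -0.62, and again no member was called.

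In the pairs alone, with the replicate number as a block, Tet1 was the 1 member called by limma, at -0.29 ± 0.0626 (SE) with an adjusted p of 0.000247, lower in 2 of 2 pairs. That fit called 1020 genes (7.5%), 459 of them lower (3.38%), so the 1 of 9 stood beside a background of similar size. The difference was of like size in other fits of the same pairs, but the call did not hold in them. Tet1 was at -0.31 with edgeR on read pairs (adjusted p 0.127), where 837 genes (6.15%) were called, at -0.31 with TMM factors (0.139) and at -0.29 without the trend in limma's prior (0.216), where 0 genes were called and 2282 had an unadjusted p under 0.05. The blocked limma fit had 1 residual degree of freedom per gene and took its spread from a prior shared by all genes. Its SE and p therefore do not measure the spread between a gene's own pairs. Every other member had an adjusted p between 0.343 and 0.954 in it, from 0.12 ± 0.0698 for Setdb1 and 0.08 ± 0.0665 for Trim28 to -0.11 ± 0.0720 for Uhrf1. Tet2 was at -0.09 ± 0.0637, Dnmt1 at -0.09 ± 0.0658, Dnmt3l at -0.05 ± 0.108, Dnmt3a at 0.02 ± 0.0987 and Dnmt3b at 0.01 ± 0.0720 (SE, 2 pairs), with the values of Dnmt3a and Dnmt3b turning to -0.0018 and -0.01 with TMM factors. The median over the 9 genes was -0.05, against 0.03 over all genes tested.

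**Figure D3:**
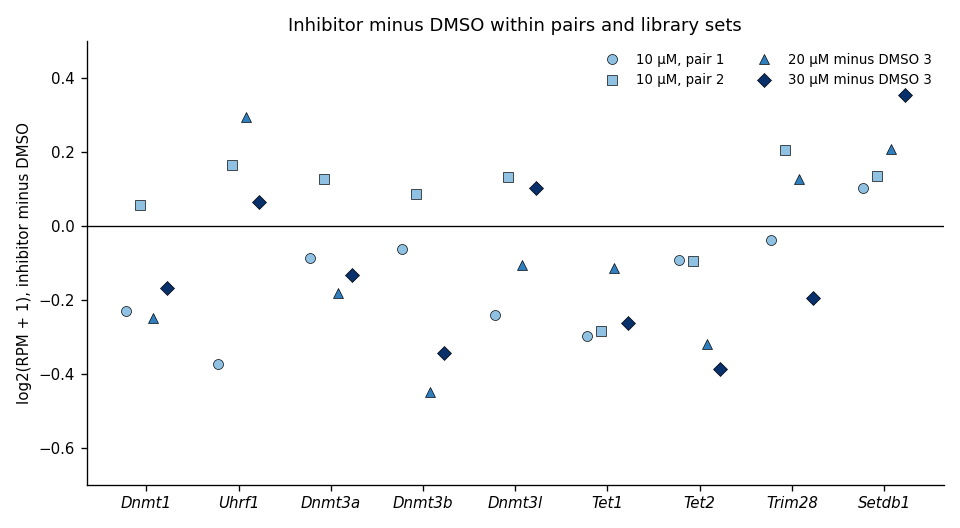
Difference of log2(RPM + 1), inhibitor minus DMSO, for each gene: 10 µM in pairs 1 and 2, and 20 µM and 30 µM minus DMSO replicate 3, which these points share. All 4 points lie below 0 for Tet1 and Tet2 and above 0 for Setdb1, and the other genes have points on both sides; with TMM factors the 20 µM point of Tet1 is at 0.01 and the pair 2 point of Dnmt1 at -0.0046, so that all 4 of Dnmt1 are then below 0.

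Across doses, the slope of each gene depended on whether the library sets were taken into account. In a linear fit over all 7 libraries (limma, log2 per 10 µM), 0 genes were called (0.0%), 1174 had an unadjusted p under 0.05, and edgeR called 0 and DESeq2 129. Setdb1 had a slope of 0.20 ± 0.0665 and Dnmt1 one of -0.23 ± 0.0993, both with an adjusted p of 0.508, and no member had a lower one. With the set as a covariate, 27 genes were called (0.199%) and none of the 9. Tet2 then had a slope of -0.13 ± 0.0442 (adjusted p 0.309), Setdb1 of 0.12 ± 0.0475 (0.412) and Tet1 of -0.12 ± 0.0497 (0.415, limma). Without DMSO replicate 3, the 1 control of set 2, 2485 genes were called (18.3%), among them Uhrf1 at -0.32, Dnmt1 at -0.31, Trim28 at -0.22 and Setdb1 at 0.25, with adjusted p of 0.0291, 0.0312, 0.0481 and 0.0299. In that fit the higher doses and set 2 cannot be told apart.

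**Figure D4:**
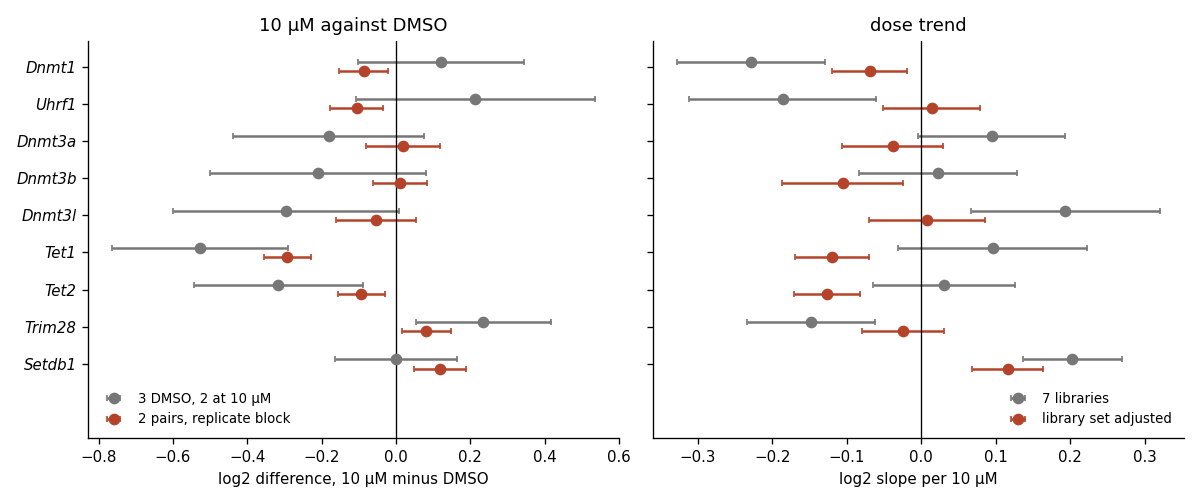
Estimates with SE for the 9 genes: on the left the log2 difference at 10 µM from 3 DMSO and 2 inhibitor libraries (grey) and from the 2 pairs with the replicate block (red), on the right the log2 slope per 10 µM over 7 libraries (grey) and with library set as a covariate (red). Tet1 is lowest on the left in both fits. The SE of the blocked fit come from limma's prior over all genes, not from each gene's own pairs. On the right the red slopes of Tet1, Tet2, Dnmt3a and Dnmt3b are below 0 where the grey ones are above it, and Uhrf1 turns the other way.

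At 20 µM and 30 µM, none of the 9 genes differed from DMSO replicate 3 by 0.5 or more in log2 units, a size that 18.2% of genes reached at 20 µM and 11.9% at 30 µM. The members ran from -0.45 (Dnmt3b) to 0.29 (Uhrf1) at 20 µM and from -0.39 (Tet2) to 0.35 (Setdb1) at 30 µM. Their medians were -0.12 and -0.17, against -0.10 and 0.04 over all genes. TMM factors moved the median of all genes by 0.12 at 20 µM and by -0.04 at 30 µM. With 1 library per dose no test was made.

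These genes also differed widely between libraries of DMSO. DMSO replicate 3 differed from the mean of replicates 1 and 2 by 0.5 or more in 7 of the 9 genes, against 42.1% of all genes tested. Dnmt3l (0.73), Tet1 (0.70), Tet2 (0.67), Dnmt3b (0.66) and Dnmt3a (0.60) were higher by that much, 5 of 9 against 12.3% of genes, and Uhrf1 (-0.96) and Dnmt1 (-0.62) lower, 2 of 9 against 29.9%. Trim28 was at -0.46 and Setdb1 at 0.36. The ratio of the highest to the lowest DMSO library ran from 1.35 for Setdb1 to 2.21 for Uhrf1. TMM factors moved the median of all genes by 0.17 in this comparison and turned no member's direction, but Dnmt1 was then at -0.44 and Setdb1 at 0.53, so that 6 of the 9 were higher and 1, Uhrf1, lower by 0.5 or more, beside 18.7% and 22.0% of all genes on that scale. Across genes, this difference went with gene length (Spearman rho 0.319 over 13599 genes, which are not independent), and the pair 2 difference at 10 µM went the other way (-0.451), while pair 1 did not (-0.0255). For the differences from DMSO replicate 3, rho was -0.137 at 20 µM and 0.0919 at 30 µM. The 15 genes chosen as a sign of cytoplasmic mRNA carried into the chromatin fraction summed to 2968 to 4130 RPM in set 1 and 1677 to 2623 in set 2, and 12 of them were lower by 0.5 or more in DMSO replicate 3. The fibroblast markers summed to 943 to 1215 RPM in set 1 and 463 to 642 in set 2, most of it Fn1, and 4 of the 7 tested were lower by 0.5 or more in DMSO replicate 3, namely Col6a1 (-3.06), Col5a1 (-0.91), Fn1 (-0.89) and Pdgfrb (-0.76). Their part in the members' differences was not tested.

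Among the other DNA methylation genes, such as Tet3, Hells and Dppa3, 0 of 19 tested passed in the pairs. That held for the blocked limma fit in either direction and for edgeR, which called 7.5% and 6.15% of all genes. The widest paired differences were 0.35 for Gadd45a, a stress gene linked to demethylation (13.7 and 13.0 RPM in DMSO, 16.4 and 18.1 at 10 µM, adjusted p 0.118), and -0.27 for Mbd3, a subunit of the NuRD complex (11.7 and 8.88, then 8.44 and 8.14, adjusted p 0.339, limma). In DMSO replicate 3, 9 of the 19 were lower by 0.5 or more. Of all genes, 29.9% were lower by that much. The list's median in that library was -0.48, that of the 9 genes 0.60 and that of all genes tested -0.18.

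Among the other retroelement silencing genes, 1 of 27 tested passed in the pairs, and it was lower at 10 µM, beside 3.38% of all genes called lower in that fit. Atf7ip, whose protein binds SETDB1 and keeps it in the nucleus, was at 338, 404 and 309 RPM in DMSO, 266 and 328 with 10 µM, 215 with 20 µM, and 235 with 30 µM. Each inhibitor library was below the DMSO library of its own pair or set. The paired log2 difference was -0.32 ± 0.0635 (SE), with adjusted p of 4.2e-05 by limma, 0.0250 by edgeR, 0.0216 with TMM factors and 0.193 without the prior's trend, where the call was lost, and the differences from DMSO replicate 3 were -0.52 and -0.39. The unpaired fit of 10 µM against DMSO called no gene of any list. The symbols Tasor and Resf1 of this list were matched under their older names Fam208a and 2810474O19Rik.

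Germline genes that DNA methylation keeps silent were read as targets of the pathway, and 20 of 24 passed the filter on low values. In the pairs, limma called 1 of the 20 higher and 1 lower, beside 7.5% of all genes called in either direction (6.15% by edgeR). Fkbp6 was higher (0.38 ± 0.115, adjusted p 0.0219 by limma and 0.0193 by edgeR) and Hormad1 lower (-0.49 ± 0.146, adjusted p 0.0175 and 0.00292). Without the trend in limma's prior neither was called (adjusted p 0.164 and 0.193). Fkbp6, a partner of the piRNA pathway, was at 18.1, 31.7 and 19.5 RPM in DMSO, 24.1 and 40.8 with 10 µM, 24.0 with 20 µM, and 33.8 with 30 µM. Hormad1, a protein of the meiotic chromosome axis, was at 16.0, 17.0 and 17.4 in DMSO, 8.95 and 14.5 with 10 µM, 13.5 with 20 µM, and 12.1 with 30 µM. Tex19.1, named for its call after its values were seen, was called by edgeR (adjusted p 0.0201) and with TMM factors (0.0360), but not by limma on the deposited scale (0.0675). Against DMSO replicate 3, 6 of the 20 were higher by 0.5 or more and 1 lower at 20 µM, and again 6 and 1 at 30 µM, beside 18.2% and 11.9% of all genes past that size in either direction, and the list's medians were 0.23 and 0.14. Of the carry-over genes, 8 of 15 were higher and 1 lower by that much at 20 µM, and 0 at 30 µM. Of the primitive endoderm markers, 4 of 8 were higher at each dose, with 3 lower at 20 µM and 1 at 30 µM. In DMSO replicate 3, 8 of the 20 germline genes were lower and 2 higher by 0.5 or more than in replicates 1 and 2 (median -0.41), beside 29.9% and 12.3% of all genes (median -0.18). Sycp3, named after its values were seen, was at 5.79, 8.10 and 1.40 RPM in DMSO, 7.65 and 11.6 with 10 µM, 4.52 with 20 µM, and 3.42 with 30 µM. Its difference of 1.20 at 20 µM was from the lowest control, but it was also higher in both pairs, by 0.35 and 0.47. It was not called in the pairs (adjusted p 0.108 by limma and 0.0622 by edgeR).

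The S phase genes were listed since Dnmt1 and Uhrf1 are transcribed with DNA replication. Of these, 0 of 20 were called in the pairs by limma and by edgeR, beside 7.5% and 6.15% of all genes. Their widest paired differences were 0.27 for Fen1, a flap endonuclease (adjusted p 0.301), and 0.23 for Ccne2, a cyclin (0.175, limma), and their median was 0.05. Their sum was 1412 to 1608 RPM in set 1 and 1142 to 1289 in set 2. In DMSO replicate 3, 3 of the 20 were lower by 0.5 or more (Mcm7, Pcna and Cdt1, named after their values were seen), beside 29.9% of all genes, and 1, Tyms, was higher (0.76), and their part in the levels of Dnmt1 and Uhrf1 was not tested. Of the mES cell markers, 0 of 9 tested were called in the pairs. Klf4 had a paired difference of 0.25 (adjusted p 0.0512) and Pou5f1 one of 0.13 (0.479, limma). Of the primitive endoderm markers 1 of 8 was called, Col4a1 (0.36, adjusted p 0.00196 by limma and 0.00931 by edgeR), and of the fibroblast markers 1 of 7, Fn1 (-0.26, 0.00157 by limma and 0.227 by edgeR). These counts stand beside 7.5% of all genes called by limma and 6.15% by edgeR. Over all 13599 genes tested, 561 were called higher in the pairs by limma and 423 by edgeR. Of the 15 cytoplasmic carry-over genes, 8 were higher and 0 lower by limma and 3 higher by edgeR, led in size by Rplp0 (0.40), Rps3 (0.40), Tubb5 (0.38) and Eef1a1 (0.37), the last of which edgeR did not call (adjusted p 0.0520). Their sum was 4130 RPM in 10 µM replicate 2 and 2968 to 3181 in the other libraries of set 1, and Gapdh (-0.09, then 0.50) and Eef2 (-0.05, then 0.50), called by limma, were lower at 10 µM in pair 1. Without the prior's trend no gene of any list was called in the pairs. These markers were measured in the same pairs as Tet1 and Atf7ip, and their part in those differences was not tested.

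**Figure D5:**
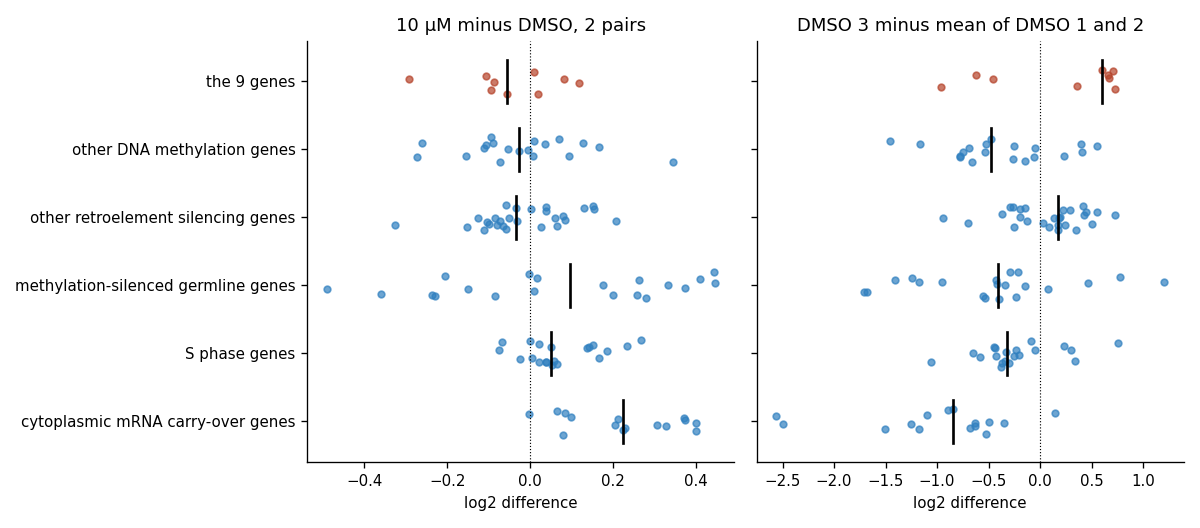
Log2 difference of each tested gene by list, with the list's median as a black line: left, 10 µM minus DMSO in the 2 pairs; right, DMSO replicate 3 minus the mean of replicates 1 and 2. On the left the 9 genes (red) centre near 0 with Tet1 apart, and on the right 6 of the 9 lie above 0 while the median of the carry-over genes is at -0.85; the axes have different ranges.

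Over the 7 libraries, the members other than Dnmt3b fell into profiles that followed the library sets. The correlation of log2(RPM + 1) was 0.926 for Dnmt1 with Uhrf1, 0.946 for Trim28 with Uhrf1, 0.974 for Dnmt3a with Dnmt3l and 0.942 for Tet1 with Tet2, and -0.913 for Dnmt1 with Setdb1 (Pearson's r, n = 7, given as a description, since the points share the sets and their depth). Dnmt3b, whose values overlapped between the sets, had an r of 0.924 with Dnmt3a. Its r was -0.480 with Dnmt1, -0.578 with Trim28 and 0.582 with Setdb1. The gene most like each member was Acaa1b for Dnmt1 (r = 0.999), Elf3 for Uhrf1 (0.993), Bcor for Dnmt3a (0.989), Trim46 for Dnmt3b (0.991), Samd4b for Dnmt3l (0.993), Laptm4a for Tet1 (0.996), Themis for Tet2 (0.998), Jmjd6 for Trim28 (0.994) and Cemip for Setdb1 (0.998). Such likeness was common, as 86 genes for Dnmt3b to 2919 for Dnmt1 had an r over 0.9.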

How the data were processed

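ChrRNA-seq libraries of 3 DMSO, 2 10 µM, 1 20 µM and 1 30 µM samples were used. After rRNA reads were filtered out (bowtie2), the authors used STAR on an mm10 genome with strain variants masked, and only uniquely mapped pairs went into strand-specific featureCounts over entire transcript spans. The deposited values are RPM, that is pairs scaled with edgeR by each library's total over genes. The deposited gene length was used only for values per kb. After 1 was added to listed start positions, the 5′ end of every member but Tet1 matched an annotated RefSeq start. No column of per-sample values was left unmapped (0). The table of allelic ratios was not used here.

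RPM were whole multiples of 1 step per library for 100% of values above 0 (tolerance 0.05 of a read pair), which gave back read pairs. Tests used limma 3.58.1 (lmFit, then eBayes with its trend option) for the genes averaging 1 RPM or more, on log2(RPM + 1), which shrinks the change of weakly transcribed genes, with 2-sided p adjusted by Benjamini-Hochberg and a threshold of 0.05. Alternatives on the recovered read pairs were the quasi-likelihood test of edgeR 4.0.16 and, separately, DESeq2 1.42.0, all in R 4.3.3. The pseudocount (0.1), the filter (5 RPM or none), TMM factors, the prior's trend, each DMSO and 10 µM replicate and, for the dose trend, the 20 µM library were varied in turn. Fits were tested on simulated counts with 200 changed genes. At a log2 change of 0.5, limma called 84 of them at 10 µM against DMSO and 40 with the replicate block. It called 27 in the dose trend, where the change was that at the highest dose. At a log2 change of 1 it called 185, 185 and 180. The simulated counts held no library sets and no replicate effects, unlike the real libraries, which split into sets. Other steps used Python 3.11.15, numpy 2.4.6 and pandas 2.3.3.

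DMSO and 10 µM replicates 1 and 2 were paired by number, since, per the study's methods, wells of each replicate came from 1 batch of cells. Deviations from the group means over the 2 numbers correlated with r = 0.621 over 13599 genes, and with DMSO deviations taken over 3 libraries r was 0.040 for replicate 1 and 0.573 for replicate 2. No such link is given for DMSO replicate 3, 20 µM and 30 µM. p-values measure the spread between these libraries of 1 clone. In the blocked limma fits with the trend option, that spread came from the prior over all genes, not from a gene's own pairs.

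The 9 genes, the gene lists and the library sets were chosen with earlier results of these data known. Named from each list were up to 4 genes with the widest paired difference among those called in the pairs or in either unpaired fit, or, where none was, up to 2 by size, and for each member the gene with the highest r.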

Additional observations from a re-analysis of the deposited data

How the results depend on the processing

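For 10 µM against DMSO, 0 genes were called in the main comparison, 1 with DESeq2, 0 to 1 when each replicate was left out in turn, and, with the replicate block, 1020 by limma, 837 by edgeR, 861 with TMM factors and 0 without the prior's trend. For the dose trend, 0 genes were called, 129 with DESeq2, 0 to 2485 when replicates were left out, and 27 (limma) or 73 (edgeR) with the set as a covariate. The blocked fits by edgeR, with TMM factors or without the trend, and the set-adjusted fit by edgeR, were chosen after seeing the data.

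Of 144 refits of members at 10 µM, 120 kept direction and call, 23 reversed and 1 gained a call; the filters and the prior's trend do not enter the estimate, and the block, the block without the trend and the fit without DMSO replicate 3 share 1 estimate, so these counts are not of independent refits. The pairs (replicate block, or without DMSO replicate 3) gave Dnmt1 -0.087, Uhrf1 -0.106, Dnmt3a 0.019, Dnmt3b 0.011 and Setdb1 0.117; the blocked edgeR fit gave Dnmt1 -0.109, Uhrf1 -0.128 and Setdb1 0.097, and blocked TMM factors -0.108, -0.127 and 0.096. Leaving out each replicate in turn gave ranges of -0.087 to 0.280 for Dnmt1, -0.106 to 0.459 for Uhrf1, -0.387 to 0.019 for Dnmt3a, -0.463 to 0.011 for Dnmt3b and -0.098 to 0.117 for Setdb1. Without 10 µM replicate 2, Dnmt3b was at 0.0045 and Setdb1 at 0.056. The block changed no other member's call than that of Tet1. Of 135 refits of slopes, 119 kept direction and call, 12 reversed and 4 gained a call (without DMSO replicate 3); the filters and the prior's trend do not enter a slope, and leaving out a 10 µM library cannot move it, as 10 µM is the mean dose, so those refits say nothing of direction. Set-adjusted slopes by limma and edgeR were -0.039 and -0.048 for Dnmt3a, -0.106 and -0.115 for Dnmt3b, 0.014 and 0.0048 for Uhrf1, -0.120 and -0.129 for Tet1, and -0.127 and -0.134 for Tet2; Dnmt3l was at -0.0022 by edgeR, and the slope of Dnmt3b ran from -0.052 (without DMSO replicate 2) to 0.109 (without DMSO replicate 3). The cause was not tested. Of the differences within set 2 and among DMSO libraries, those of Dnmt1 (-0.444) and Setdb1 (0.534) in DMSO replicate 3 crossed 0.5 in size with TMM factors. Depth limited the 20 µM library most.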
